A study of Mus musculus with 41 samples.

Results

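The MLL3/4 gains without SOX9 were peaks of MLL3/4 in epidermal stem cells (EpdSCs) of mouse back skin. They were called 1 week after SOX9 induction but not before it, were called again after 2 weeks, and never lay under a SOX9 peak. They were chosen by the deposited peak lists themselves. A W1 MLL3/4 peak was a member if it shared at least 1 bp with a W2 MLL3/4 peak, with no D0 MLL3/4 peak, and with no SOX9 peak of D0, W1, W2, W6 or W12. The rule found 1103 regions among 31539 W1 MLL3/4 peaks, a background rate of 3.50% (95% Wilson interval 3.30 to 3.71). Whatever follows from the presence or absence of these peaks was fixed by the rule and is given as a description. Of 4841 W1 peaks that were new since D0 and kept at W2, the members made up 22.8% (21.6 to 24.0), and the other 3738 overlapped SOX9 at some time point.

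MLL3 and MLL4 (also KMT2C and KMT2D) are large histone methyltransferases that place a single methyl group on lysine 4 of histone H3, a mark of enhancers that are poised or in use. They do not read a DNA word of their own and are brought to enhancers by transcription factors. SOX9, an HMG-box transcription factor of hair follicle stem cells, is one such factor and can bind DNA that is still packed in nucleosomes. In epidermal cells the AP1, TEAD, C/EBP, AP-2, GATA, KLF and p63 families are also known to occupy enhancers.

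MLL3/4 and SOX9 were mapped by CUT&RUN sequencing (CNR), in which an antibody directs a nuclease to cut out the bound DNA. The in vivo samples came from male CD1 mice of the genotype K14rtTA; TRE-myc-Sox9, in which a Krt14 promoter drives the rtTA activator and doxycycline (DOX) then switches on MYC-tagged SOX9 in basal keratinocytes. Mice were P21 before DOX (D0), P28 at W1, P35 at W2 and P63 at W6, whereas the W12 skin was taken from newborn pups and grafted onto Nude mice, which received DOX once the grafts had healed. The age of the mice and the time on DOX rose together and cannot be told apart, and no list from DOX-treated mice without the transgene was used here. Cells were sorted as high for CD49f and Ly6A and negative for CD34, CD31, CD45, CD117 and CD140a. Cultured Krt14-rtTA keratinocytes carried DOX-inducible, MYC-tagged SOX9 from a lentivirus, as the full protein (WT-SOX9), a version without the transactivation domain (dTA-SOX9, called noTA in the labels) or a version without the DNA-binding HMG domain (dHMG-SOX9, noHMG in the labels), and received DOX at 1 µg/ml or none. Each of the 16 lists used pooled 2 samples, and the lists used give no values per replicate. Intervals are therefore taken over peaks, cover counting error only, and no p-value is given.

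The DNA under the strongest members is shown first, since 84.4% of members, beside 79.6% of all W1 peaks, held neither a SOX nor an AP1 word at their centre. Each line gives the nearest protein-coding gene, the mm10 position of the window within 50 bp of the centre of the peak's maximum, and the plus strand 5′ to 3′. Of 20 consensus words searched on both strands, the 5 windows of highest total signal, 4 of them around Cwc22 and 1 in Ghr, held none, so no base is in capitals.
Cwc22 chr2:77900759-77900859: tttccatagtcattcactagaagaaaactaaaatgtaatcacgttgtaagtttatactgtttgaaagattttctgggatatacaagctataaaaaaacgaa
Cwc22 chr2:77989910-77990010: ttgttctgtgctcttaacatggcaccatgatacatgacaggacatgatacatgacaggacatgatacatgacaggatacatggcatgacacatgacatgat
Cwc22 chr2:77879532-77879632: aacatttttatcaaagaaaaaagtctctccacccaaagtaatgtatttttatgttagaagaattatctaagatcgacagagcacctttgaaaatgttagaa
Cwc22 chr2:77882514-77882614: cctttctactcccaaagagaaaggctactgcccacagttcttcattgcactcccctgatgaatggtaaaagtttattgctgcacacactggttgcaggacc
Ghr chr15:3404508-3404608: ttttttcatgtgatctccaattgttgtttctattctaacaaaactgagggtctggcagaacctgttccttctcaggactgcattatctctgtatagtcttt

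In the following windows capitals mark the word that names the line. The AP1 word TGASTCA, with S for C or G, is bound by FOS and JUN dimers. Both AP1 windows came from peaks that touched a promoter, with centres 1186 and 1261 bp from the nearest protein-coding start.
Sgms1 AP1 chr19:32195192-32195292: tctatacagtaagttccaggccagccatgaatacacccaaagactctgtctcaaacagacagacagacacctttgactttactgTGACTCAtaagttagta
Gabpb1 AP1 chr2:126677548-126677648: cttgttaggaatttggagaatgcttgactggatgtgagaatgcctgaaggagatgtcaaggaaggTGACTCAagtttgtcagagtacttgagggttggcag
The TEAD word RCATTCC, with R for A or G, is bound by the TEAD factors of the Hippo pathway.
Cyp7b1 TEAD chr3:18299734-18299834: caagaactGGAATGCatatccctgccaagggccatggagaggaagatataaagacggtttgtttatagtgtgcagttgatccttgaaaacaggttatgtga
Mbip TEAD chr12:56358025-56358125: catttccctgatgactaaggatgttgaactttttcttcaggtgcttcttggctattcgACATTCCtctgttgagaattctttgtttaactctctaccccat
The C/EBP word TTGCNNAA and the POU word ATGCAAAT, which may share bases when one is read on the other strand, mark sites of C/EBP proteins and of octamer-binding factors.
4921504E06Rik CEBP chr2:19560012-19560112: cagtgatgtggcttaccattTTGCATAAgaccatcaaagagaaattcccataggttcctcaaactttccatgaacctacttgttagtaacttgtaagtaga
Hrnr CEBP chr3:93354162-93354262: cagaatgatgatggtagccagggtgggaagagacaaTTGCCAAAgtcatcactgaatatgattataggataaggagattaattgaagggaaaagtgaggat
Slc22a23 POU chr13:34373225-34373325: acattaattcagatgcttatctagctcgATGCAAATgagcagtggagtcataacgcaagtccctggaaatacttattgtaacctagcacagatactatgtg
Ipo5 POU chr14:120832501-120832601: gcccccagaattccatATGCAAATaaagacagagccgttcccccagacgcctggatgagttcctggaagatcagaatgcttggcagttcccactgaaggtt
The ETS word CCGGAAG is typical of promoters, and the windows lay 16 bp from the start of Usp16 and 4 bp from that of Cops2.
Usp16 ETS chr16:87454913-87455013: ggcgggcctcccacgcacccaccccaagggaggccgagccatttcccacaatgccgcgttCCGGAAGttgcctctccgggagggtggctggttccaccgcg
Cops2 ETS chr2:125859009-125859109: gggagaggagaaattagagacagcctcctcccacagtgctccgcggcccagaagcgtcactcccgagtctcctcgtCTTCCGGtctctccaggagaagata
The SOX word SCWTTGT, with W for A or T, was added to the set after its values were seen, because SOX9 peaks were absent from these regions by definition.
Noct SOX chr3:51159932-51160032: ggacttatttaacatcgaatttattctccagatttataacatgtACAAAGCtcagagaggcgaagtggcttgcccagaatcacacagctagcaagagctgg
Spop SOX chr11:95433181-95433281: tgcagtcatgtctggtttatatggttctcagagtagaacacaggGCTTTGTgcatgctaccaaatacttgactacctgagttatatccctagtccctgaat

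The members were weak peaks. Their total MLL3/4 signal at W1, the unscaled coverage summed over the peak, ran from 484 to 5620 with a median of 864. The median was 1344 in SOX9-bound gains, 1115 in MLL3/4 sites kept from D0 to W2 that SOX9 never touched (kept sites), and 612 in gains without SOX9 that W2 no longer had (W1-only gains). A median member stood at percentile 37.9 of the W1 list and at percentile 34.0 of the W2 list. The maximum coverage at W1 had a median of 6 fragments and a highest value of 14, and the lowest maximum in the list was 5. Of the members, 39.2% (36.3 to 42.1) sat at that floor of 5 and 3.99% (2.98 to 5.31) reached 10, whereas 25.6% of SOX9-bound gains reached 10. Members were narrow, with a median width of 304 bp against 406 bp in SOX9-bound gains and 352 bp in kept sites.

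**Figure D1:**
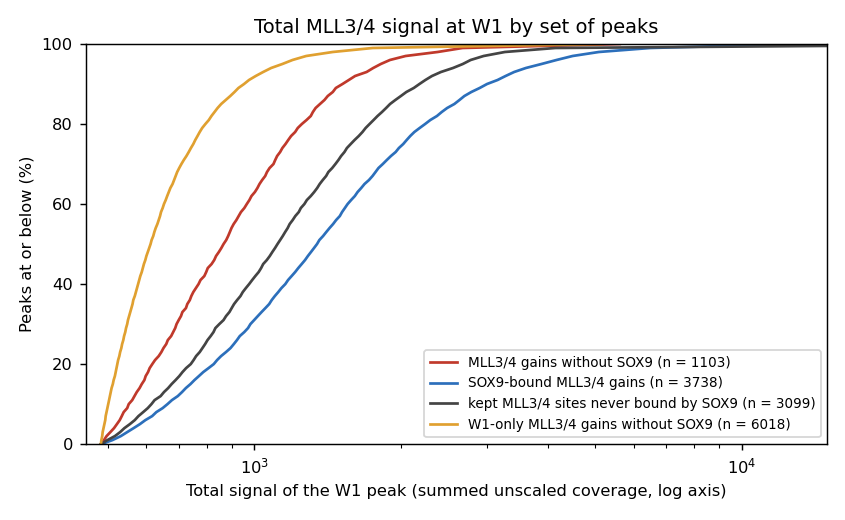
Cumulative share of peaks (vertical axis, %) by total MLL3/4 signal at W1 (horizontal axis, summed unscaled coverage, log scale) for 4 sets of peaks. The curve of the 1103 members, median 864, lies between that of 6018 W1-only gains, median 612, and those of 3099 kept sites, median 1115, and 3738 SOX9-bound gains, median 1344.

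The maxima of W1 and W2 are not scaled to each other and the depth of the lists is unknown, so their balance does not show whether signal rose or fell. The maximum was higher at W2 in 34.9%, lower in 34.5% and equal in 30.6%, and the centres of the W1 and W2 maxima lay a median of 66 bp apart. In 1028 members the overlap with the W2 peak covered at least 50% of the shorter peak. With the W1 list cut into 4 equal parts by total signal, members made up 4.21%, 5.45% and 3.65% of the first 3 parts from the weakest upwards and 0.685% (0.525 to 0.892) of the strongest.

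Few of the gains without SOX9 lasted. Of 7121 W1 gains that no SOX9 peak touched, 15.5% (14.7 to 16.3) were still peaks at W2, against 69.3% (68.0 to 70.5) of 5397 gains that SOX9 touched at some time. The shares rose with the W1 maximum in both. At a maximum of 5 they were 9.36% without and 50.1% with SOX9, and at 8 or more they were 49.7% and 88.1%. Since W2 peaks and SOX9 peaks were both part of the rule, these shares describe the selection.

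The border of the rule was crowded by few peaks. A SOX9 peak ended at most 100 bp from 31 members, whose median total was 691, and a D0 MLL3/4 peak at most 100 bp from 33. Just outside, 8 regions were left out because a SOX9 peak shared no more than 50 bp with them, with a median total of 865, and 19 because of a D0 peak sharing no more than 50 bp. The lists of the SOX9 antibody were kept by the authors above a maximum of 1800 RPKM, which stood for 32 fragments at W1 and 24 at W2, so weaker SOX9 signal at a member would not be seen. The lowest maximum of the D0 MLL3/4 list was 5, so weaker D0 signal at a member would not be seen either. A gain is thus a peak that was called at W1 and not at D0. Among SOX9-bound gains, the first list to show SOX9 was that of D0 for 19 regions, of W1 for 2826 and of W2 for 641. For 241 more it was the W6 list and for 11 the W12 list.

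Members lay at promoters more often than SOX9-bound gains and less often than kept sites. A member touched a promoter, the 1 kb to either side of an annotated transcript start, in 190 cases, or 17.2% (15.1 to 19.6), beside 21.3% of all W1 peaks. This was 6.55 points more than in SOX9-bound gains at 10.7% (95% Newcombe interval of the difference 4.20 to 9.08) and 4.20 points fewer than in kept sites at 21.4% (difference −4.20, interval −6.78 to −1.47). Among strong peaks the difference from SOX9-bound gains depended on the measure of strength. It was not seen in the 50% of each MLL3/4 list with the highest total signal. There the promoter share of members was 10.7%, a difference of −0.387 points (−3.75 to 4.00). At a W1 maximum of 8 or more the shares were 12.9% and 7.80% (difference 5.11, 0.809 to 10.8). The interval was also above 0 at a maximum of 6, but included 0 at 5 and at 7. With a maximum of at least 7 at both W1 and W2 the difference was 3.78 points (−0.641 to 9.83). The difference from kept sites in turn was −1.54 points (−4.12 to 1.14) with MLL3/4 lists cut to equal size. Introns held 42.0% of members, exons 2.45% and intergenic DNA 38.3%, beside 39.9%, 2.53% and 36.3% of all W1 peaks. The median distance to the nearest protein-coding start was 17766 bp in members, 24728 bp in SOX9-bound gains and 12456 bp in kept sites.

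Members held repeats more often than either set of kept peaks. G and C made up 44.9% of the windows, against 44.7% in SOX9-bound gains and 45.5% in kept sites. At least 50% of the bases were soft-masked as repeats in 5.17% of members (4.01 to 6.64), in 1.66% of SOX9-bound gains, in 96 of 3099 kept sites and in 3.14% of all W1 peaks. Both differences, 3.51 points (2.26 to 5.02) and 2.07 points (0.732 to 3.64), had intervals above 0. W1-only gains were higher still at 8.62%. Reads from repeats can be placed wrongly, and the part of this in the members was not tested.

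SOX9 was near many members although it touched none. The gap to the nearest SOX9 peak of any time point had a median of 5572 bp. A SOX9 peak lay within 10 kb of 673 members, or 61.0% (58.1 to 63.9), beside 78.8% of all W1 peaks, a list that includes peaks on SOX9 itself. Members moved by 200 kb to each side had SOX9 within 10 kb in 24.0% (22.2 to 25.8). Kept sites were at 58.2%, and the difference of 2.84 points had an interval that included 0 (−0.549 to 6.16). Within 1 kb the shares were 21.3% of members and 18.8% of kept sites (difference 2.53, −0.187 to 5.37). W1-only gains lay farther off, with 37.6% within 10 kb.

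SOX9-bound gains were more often close to members than to kept sites. One lay within 10 kb of 201 members, or 18.2% (16.1 to 20.6), and of 311 kept sites, a share smaller by 8.19 points (5.75 to 10.8), beside 23.9% of all W1 peaks, which include those gains themselves. The median gap to the nearest D0 MLL3/4 peak was 5652 bp. In 298 members, or 27.0%, both the nearest SOX9 peak and the nearest D0 MLL3/4 peak were over 10 kb away, as they were for 10.6% of all W1 peaks, many of which overlap such peaks.

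**Figure D2:**
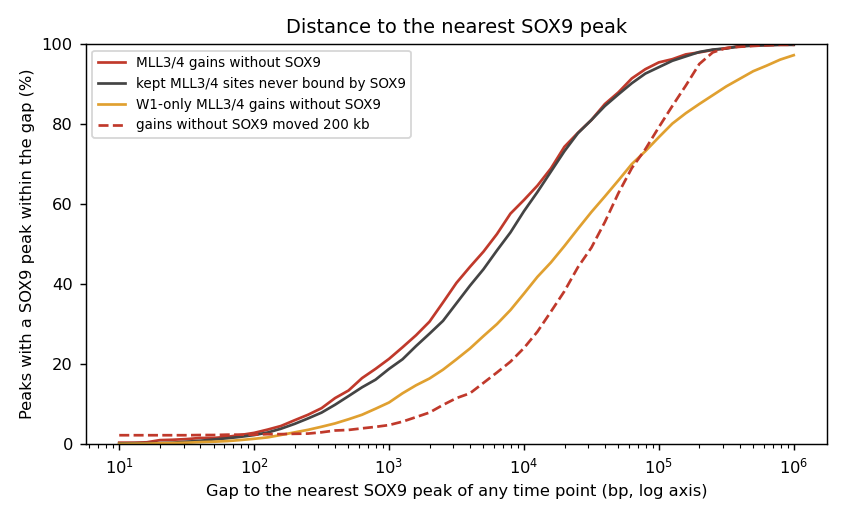
Cumulative share of peaks (vertical axis, %) with a SOX9 peak of any time point within a gap (horizontal axis, bp, log scale). Members (61.0% within 10 kb) and kept sites (58.2%) run close together, above W1-only gains (37.6%) and, between 1 kb and 50 kb, above members moved by 200 kb (dashed, 24.0% within 10 kb).

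Members held the SOX word less often than SOX9-bound gains, from which the rule had split them by the lack of a SOX9 peak. Their share was close to that of all W1 peaks. The SOX word was in the central window of 100 members, or 9.07% (7.51 to 10.9), beside 9.09% of all W1 peaks. Windows 1 kb to each side of the members held it in 6.35% (5.40 to 7.44). In SOX9-bound gains the share was 19.3%, so members were lower by 10.2 points (difference −10.2, interval −12.2 to −7.98). Against kept sites at 5.42% members were higher by 3.65 points (1.87 to 5.63), but in the upper 50% of each MLL3/4 list this difference was 2.87 with an interval that included 0 (−0.138 to 6.80). The profile of SOX words across the members was nearly flat, with 4.62 and 4.99 words per 100 peaks in the central bins of 50 bp and 2.09 to 4.71 in the others. In SOX9-bound gains it rose to 10.7 and 11.3 at the centre.

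The lower share of SOX words than in SOX9-bound gains was seen at each peak height. Since the rule split these sets by SOX9 peaks, the values describe the selection. At a W1 maximum of 5, members held the SOX word in 7.87% and SOX9-bound gains in 15.8% (difference −7.98, −11.6 to −4.13). At a maximum of 8 or more, the shares were 8.06% and 22.2% (difference −14.1, −17.8 to −8.92), and the interval lay below 0 at 6 and at 7 as well. Within the members the word was in 66 of the 551 of higher total and in 34 of the other 552, a difference of 5.82 points (2.44 to 9.26). The total grows with the width of a peak, and by maximum the shares were 7.87% at 5, 9.67% at 6, 11.9% at 7 and 8.06% at 8 or more, with no steady rise. Members of lists cut to their upper 50% by total held the word in 7.38%. It was found in 10.2% of members with SOX9 within 1 kb and in 7.91% of those with none within 10 kb, shares whose intervals overlapped.

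The AP1 word was concentrated at the centres of members, as it was at those of W1 peaks in general. It was in 77 windows, or 6.98% (5.62 to 8.64), and in 1.36% of windows 1 kb away, a ratio of 5.13. The share over all W1 peaks was 12.3%, a ratio of 6.36 to windows 1 kb away. This ratio was 5.74 in SOX9-bound gains and 4.56 in kept sites. Counts per 100 peaks rose from 0.725 and 0.635 in the outermost bins to 3.81 and 3.90 in the central ones. SOX9-bound gains held AP1 in 11.9% (difference −4.92, −6.66 to −2.99), whereas for kept sites at 8.10% the interval included 0 (difference −1.12, −2.81 to 0.773). The second interval lay below 0 with W2 peaks in place of W1 peaks (−2.11, −3.66 to −0.367), and the first reached 0 with the SOX9 lists of W1 and W2 only (−1.88, −3.69 to 0.0764). Within single peak heights the deficit of AP1 against SOX9-bound gains was clear only at a W1 maximum of 7 (difference −7.33, −11.1 to −2.41), and at 5, 6 and 8 or more its interval reached 0. Neither the SOX nor the AP1 word was present in 84.4% of members (82.1 to 86.4), against 70.6% of SOX9-bound gains, 86.8% of kept sites and 79.6% of all W1 peaks.

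TEAD and C/EBP words had shares near that of AP1 but exceeded windows 1 kb away by less, at ratios of 2.73 and 2.18. The TEAD word was in 75 members, or 6.80%, against 2.49% of windows 1 kb away and 5.66% of all W1 peaks. The C/EBP word was in 87 members, or 7.89%, against 3.63% 1 kb away and 5.92% of all W1 peaks, and exceeded its share in kept sites by 2.01 points (0.318 to 3.92). The POU word was in 26 members, or 2.36%, against 0.635% 1 kb away and 1.87% of all W1 peaks. For none of TEAD, C/EBP and POU did the difference from SOX9-bound gains have an interval off 0. The AP-2 word GCCNNNGGC was in 3.45% of members, 1.31% of windows 1 kb away and 3.62% of all W1 peaks.

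The GATA and RUNX words were hardly more frequent in the members than 1 kb away. The GATA word AGATAAS was in 33 members, or 2.99%, beside 2.13% 1 kb away and 3.32% of all W1 peaks, and was less frequent than in kept sites by 1.59 points (difference −1.59, −2.76 to −0.228). The RUNX word AACCACA was in 36 members, or 3.26%, beside 2.99% 1 kb away and 2.24% of all W1 peaks, and was more frequent than in kept sites by 1.33 points (0.277 to 2.62). The KLF word GGGCGTG and the ETS word were rare but higher at the centre than 1 kb away. The KLF word was in 19 members, or 1.72%, against 0.680% 1 kb away and 1.74% of all W1 peaks. The ETS word was in 9 members, or 0.816%, against 0.181% 1 kb away and 1.10% of all W1 peaks. The strict p63 word and the NFI word were found in 0 of 1103 windows, which allows a share of up to 0.347%. A word is a description of letters, and 0 matches to a strict word say nothing of the factor.

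**Figure D3:**
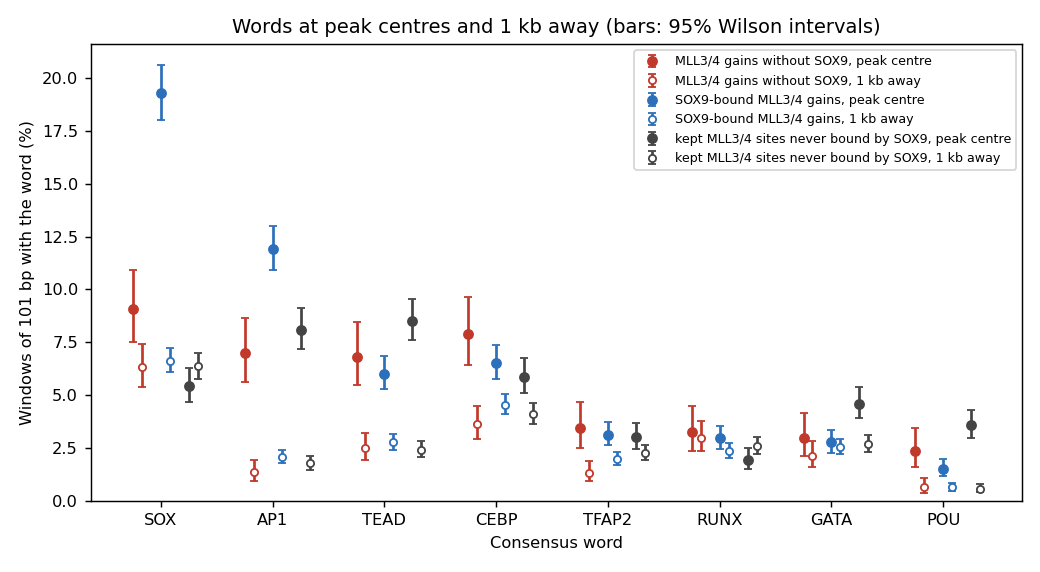
Share of windows (50 bp to each side of the centre) with each of 8 words (vertical axis, %) at peak centres (filled) and 1 kb away (open) for members, SOX9-bound gains and kept sites, with 95% Wilson intervals. Members lie far below SOX9-bound gains for the SOX word (9.07% against 19.3%) and below them for AP1 (6.98% against 11.9%), and at peak centres they exceed their own surroundings most clearly for AP1, TEAD, C/EBP, AP-2 and POU.

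The lists of cultured keratinocytes were not part of the rule. Without DOX, an MLL3/4 peak of cultured cells lay on 208 members, or 18.9% (16.7 to 21.3), beside 39.3% of all W1 peaks and 2.81% of members moved by 10 kb to each side. The share was lower than in kept sites at 41.6% (difference −22.7, −25.5 to −19.8) and than in SOX9-bound gains at 24.9% (difference −6.02, −8.63 to −3.25). The second difference was not seen among the strongest 50% of peaks, at −2.22 points (−7.69 to 3.75). W1-only gains were below members, at 7.41% (difference 11.4, 9.14 to 13.9), and were so in each other cultured MLL3/4 list. These 208 regions had no MLL3/4 peak in EpdSCs before DOX but had one in cultured cells before DOX.

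MLL3/4 lay on few members in culture once WT-SOX9 was induced. With WT-SOX9 and DOX, an MLL3/4 peak lay on 74 members, or 6.71% (5.38 to 8.34), beside 16.8% of all W1 peaks and 1.09% of moved members. SOX9-bound gains were at 26.6% (difference −19.9, −21.8 to −17.7). Kept sites were at 10.8% (difference −4.10, −5.86 to −2.16), a difference whose interval included 0 in the upper 50% of peaks (−4.57, −9.16 to 0.722) and at a maximum of at least 7 (−5.34, −10.0 to 0.856). Only 17 members, or 1.54%, had an MLL3/4 peak with WT-SOX9 and DOX but not without DOX. This compares with 3.39% of all W1 peaks and 15.0% of SOX9-bound gains (difference −13.5, −14.8 to −12.1). The share of members was above that of kept sites at 0.419% (difference 1.12, 0.473 to 2.05). It was also above that of W1-only gains at 0.881% (difference 0.661, 0.0240 to 1.60). The WT-SOX9 list was also the shortest of the 4, with 10543 peaks against 33975 without DOX, and the labels of its samples both describe replicate 2. Its low shares are therefore to be read against the 16.8% of all W1 peaks.

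With the mutant proteins more members were occupied than with WT-SOX9. MLL3/4 lay on 115 members with dTA-SOX9, or 10.4% (8.76 to 12.4), beside 28.1% of all W1 peaks. It lay on 134 members with dHMG-SOX9, or 12.1% (10.4 to 14.2), beside 30.1% of all W1 peaks. Both lists were longer than that of WT-SOX9, at 25948 and 23301 peaks. Of the 208 members with MLL3/4 in culture without DOX, 57 also had a peak after DOX with WT-SOX9, or 27.4% (21.8 to 33.8), beside 322 of 1289 kept sites of that kind (22.7 to 27.4%) and 34.1% of all such W1 peaks. The number was 96 for dTA-SOX9, or 46.2% (39.5 to 52.9), beside 57.5% (54.8 to 60.2) of kept sites and 65.9% of all such W1 peaks. For dHMG-SOX9 it was 112, or 53.8% (47.1 to 60.5), beside 69.0% (66.4 to 71.4) and 71.1%. Members and kept sites were thus apart for the mutants but overlapped in their intervals for WT-SOX9. Any of the 4 cultured MLL3/4 lists touched 261 members, or 23.7%, beside 46.0% of all W1 peaks, and all 4 touched 37, or 3.35%, beside 10.9% of all W1 peaks.

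The MYC tag of SOX9 lay on few members in culture, and on a smaller share of them than of all W1 peaks. SOX9-bound gains, given beside them, were chosen by SOX9 peaks in vivo. A MYC-tag peak with WT-SOX9 and DOX lay on 13 members, or 1.18% (0.690 to 2.01), beside 7.03% of all W1 peaks, 0.363% of moved members and 20.1% of SOX9-bound gains (difference −19.0, −20.4 to −17.5). With dTA-SOX9 it lay on 51 members, or 4.62% (3.53 to 6.03), above the 0.861% (0.552 to 1.34) of moved members, beside 12.2% of all W1 peaks and 13.2% of SOX9-bound gains. Without DOX it lay on 9 members, or 0.816%, beside 3.40% of all W1 peaks, and with dHMG-SOX9 on 8, or 0.725%, beside 4.16%. Kept sites at 1.52% and 5.42% differed from members by less than the counting error with WT-SOX9 and dTA-SOX9. Members were lower than kept sites without DOX, where these were at 1.68% (difference −0.862, −1.51 to −0.0337). With dHMG-SOX9 kept sites were at 2.71% (difference −1.99, −2.71 to −1.12).

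**Figure D4:**
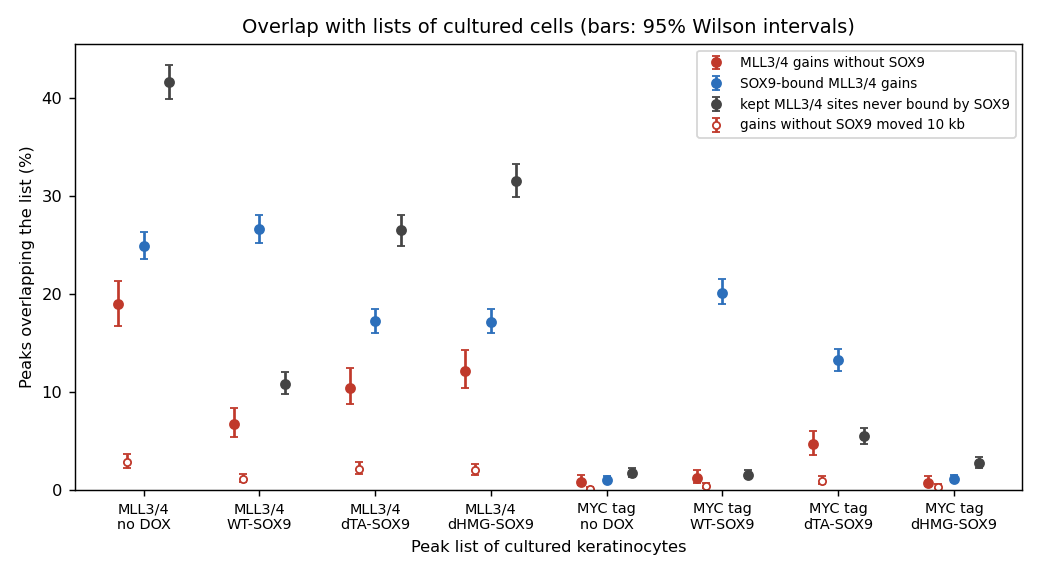
Share of members, SOX9-bound gains, kept sites and members moved by 10 kb (vertical axis, %) that overlap each of 8 lists of cultured keratinocytes, with 95% Wilson intervals. Members are lower than kept sites in the 4 MLL3/4 lists, though for WT-SOX9 not clearly so within any single W1 maximum. They stay near 1% for the MYC tag with WT-SOX9, where SOX9-bound gains reach 20.1%.

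The members were scattered over many genes. The nearest protein-coding start belonged to 935 genes, of which 799 had 1 member, 114 had 2, 20 had 3 and 2 had more. For 547 members, or 49.6% (46.6 to 52.5), the nearest gene also had a SOX9-bound gain, beside 49.8% of all W1 peaks, which include those gains, and 38.9% (37.2 to 40.6) of kept sites. For 131, or 11.9%, it had no D0 MLL3/4 peak, beside 2050 of the 31539 W1 peaks (6.23 to 6.78%). The gene with most members was Cwc22, a spliceosome-associated protein, with 11, followed by Ifi202b, an interferon-inducible gene of the Ifi200 family, with 5. The rest of the 15 leading genes had 3 each and were taken from the 20 such genes by the summed W1 total of their members. They were Filip1l, Bbox1, Prickle2, Nedd4l, Ints9, Sgms1, Tenm2, Cerkl, Mcc, Ccser1, Rgma, Sptbn1 and Tbl1xr1.

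Some of these genes also gained MLL3/4 with SOX9, and some did not. Filip1l had 9 SOX9-bound gains beside its 3 members, and its W1 peaks numbered 24 against 12 at D0. One of its members, 343 bp from a SOX9 peak, had a total of 1318 at W1 and 1431 at W2. Prickle2, a planar cell polarity gene, had 5 SOX9-bound gains, and its strongest member reached a total of 2464. Bbox1, an enzyme of carnitine synthesis, went from 6 MLL3/4 peaks at D0 to 15 at both W1 and W2 and had 4 SOX9-bound gains beside its 3 members. Sptbn1, which encodes a spectrin, had 0 SOX9-bound gains and 8, 9 and 9 peaks at D0, W1 and W2. At Sgms1, a sphingomyelin synthase, the member with the AP1 word shown above lay 1186 bp from a start and 350 bp from a SOX9 peak, with a total of 2175.

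Genes of hair follicle and epidermal regulators were near few members. Of 23 hair follicle transcription factors, 8 were nearest to 9 members, which was 0.816% of members beside 0.593% of all W1 peaks and 0.589% of SOX9-bound gains. Sox9 itself was nearest to 2 members, 145124 and 430098 bp from its start, with totals of 1141 and 1412 at W1 and 718 and 1190 at W2. The first of them held a SOX word and lay 3247 bp from a SOX9 peak. The 21 epidermal transcription factors were nearest to 9 members, or 0.816%, beside 1.06% of all W1 peaks. Of these, Gata3 had 2 members at over 545 kb, with totals of 2043 and 487, Klf5 had 2 at 8423 and 61045 bp, and Grhl2 had 2 at 75427 and 111132 bp. Klf5, a regulator of basal keratinocytes, had an AP1 word in its nearer member, with a total of 1020.

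Signalling genes were represented by single members or pairs. The 30 WNT pathway genes had 6 members, or 0.544%, beside 0.349% of all W1 peaks, 2 of them near Fzd7, a WNT receptor, at 72562 and 88215 bp from its start and with totals of 1631 and 1291. Fzd7 had 2 MLL3/4 peaks at D0, 8 at W1 and 13 at W2, and 4 SOX9-bound gains. The 24 genes of the TGF-β and BMP pathway had 5 members, or 0.453%, beside 0.419% of all W1 peaks. Fst, an antagonist of activin, had 2 of them, and the one 29909 bp from its start lay 17 bp from a SOX9 peak and had a total of 1014 at W1 and 4196 at W2. Tgfb2, a ligand, had 2 with totals of 1332 and 760. The 14 Notch pathway genes had 4, or 0.363%, beside 0.273% of all W1 peaks, namely 2 at the ligand Jag1 with totals of 770 and 518 and 2 at Rbpj, the DNA-binding factor of the pathway, with 1086 and 532. The RUNX genes had 2 members, or 0.181%, beside 0.143% of all W1 peaks, both nearest to Runx1, which had 16 SOX9-bound gains, and their totals were 809 and 709. The 21 genes of cell cycle and growth had 5 members, or 0.453%, beside 0.358% of all W1 peaks, of which Myc had 2 at 96310 and 271392 bp. The 27 genes of wound and stress response had 3, or 0.272%, beside 0.358%, of which Tnfaip3, an inhibitor of NF-κB signalling, had 2 at 101900 and 106660 bp.

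The other lists held between 8 members and 0. The 36 genes of extracellular matrix and integrins had 8 members, or 0.725%, beside 0.694% of all W1 peaks, the 13 Hedgehog genes had 4 and the 17 EGF receptor pathway genes had 3. The 12 AP1 genes had 1, the 20 junction genes 2, and the 19 genes of MLL3/4 and SWI/SNF complexes 1, or 0.0907% beside 0.143% of all W1 peaks. The 13 keratin genes had 0, and so had the 14 genes of epithelial-mesenchymal transition, beside 0.0983% of all W1 peaks. Beside all W1 peaks, the share of members was higher for the Hedgehog list (0.363% against 0.162%) and lower for the junction list (0.181% against 0.514%), the EGF receptor list (0.272% against 0.365%), the AP1 genes (0.0907% against 0.155%) and the keratins (0 against 0.127%). With single-digit counts nothing particular to a list can be read from them.

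Of the 147 members at promoters of protein-coding genes, 13.3% of members beside 17.4% of all W1 peaks, 3 were picked out after their values were seen because their genes are in the lists above. A member lay 10 bp from the start of Ccnd2, a G1 cyclin, with a total of 606 at W1 and 531 at W2. Another lay 11 bp from the start of Gli2, a Hedgehog effector, with totals of 534 and 1002. One more lay 77 bp from the start of Fzd8, a WNT receptor, with totals of 839 and 1156. These 3 had a maximum of 5 at W1, the floor of the list. The promoters of Gli2 and Fzd8 were 30318 and 175470 bp from the nearest SOX9 peak, whereas that of Ccnd2 had one 1237 bp away. Outside promoters, and also picked after its values were seen, Ivl, a protein of the cornified envelope, had a member 6032 bp from its start that also lay in all 4 cultured MLL3/4 lists.

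Cwc22 accounted for the largest cluster of members and for 4 of the 10 strongest. Linking members within 50 kb gave 978 clusters, of which 881 were single members and 3 had 4 or more. The Cwc22 cluster held 11 members over 145440 bp. It lay inside a run of W1 MLL3/4 peaks at chr2:77869660-78026997, a region of 157338 bp around the gene, which is on the minus strand at chr2:77881159-77946375. The run held 104 W1 peaks that covered 42.5% of its bases, against 7 peaks (2.07%) at D0 and 27 (7.75%) at W2. The next W1 peaks were 64848 bp to the left and 625051 bp to the right. It was the longest of 17541 runs of W1 peaks less than 10 kb apart, ahead of one of 38 peaks.

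Most W1 peaks of the run had no peak at D0 or W2. Besides the 11 members it held 78 W1-only gains and 3 SOX9-bound gains. The SOX9 lists had 3 peaks there at D0, 10 at W1 and 1 at W2, then 5 (W6) and 7 (W12), and the 8 lists of cultured keratinocytes had 0. The strongest member, in an intron 7358 bp from a start of Cwc22, had a total of 5620 at W1 and 1925 at W2, and the second, 43585 bp from a start, 3961 and 705. As background, DNA around Cwc22 is known to differ in copy number between mice, CD1 is an outbred stock, and the copy number of the mice used was not measured. Without this region 1092 members remained, 3.46% of W1 peaks, the promoter share was 17.2% and the SOX word share 9.07%.

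**Figure D5:**
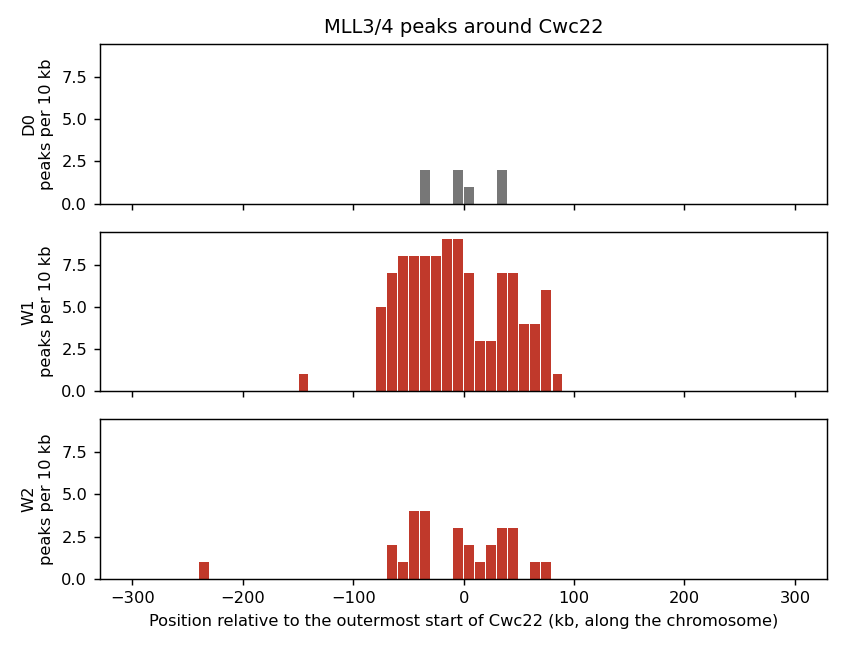
MLL3/4 peaks per 10 kb (vertical axis) at D0, W1 and W2 by position relative to the outermost start of Cwc22 (horizontal axis, kb along the chromosome). The dense block at W1, part of a run of 104 peaks, stands against 7 peaks at D0 and 27 at W2 in the same region.

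The second cluster lay in Ifi202b on chromosome 1, where 5 members fell within 8632 bp. That stretch held 0 MLL3/4 peaks at D0, 5 at W1 and 6 at W2, and no SOX9 peak at any time point. The W1 totals ran from 725 to 1740. The 2 members nearest to the start of the gene, at 1069 and 1590 bp, lay under one W2 peak with a total of 2191 and a maximum of 9. Ifi200 genes are close copies of each other, so reads may be split between them.

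Outside Cwc22 the strongest member lay in an intron of Ghr, the growth hormone receptor, at chr15:3404478-3405020. Its total was 3495 with a maximum of 13 at W1 and 1036 with a maximum of 7 at W2. It was one of the members present in culture, with MLL3/4 peaks in all 4 lists and a MYC-tag peak with dTA-SOX9, although its nearest SOX9 peak in vivo was 39380 bp away. The next, in an intron of Ccdc68, had totals of 2940 and 2169 and an AP-2 word. An intergenic member 32690 bp from Picalm, an endocytosis gene, at chr7:90097087-90097719, lay 298 bp from a SOX9 peak, with totals of 2807 and 2239. The promoter member of Fam117a at chr11:95339906-95340816 had totals of 2807 and 1808.

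The last 2 of the 10 strongest members were on chromosome 3. One at chr3:18299286-18300079, 56446 bp from Cyp7b1, an oxysterol hydroxylase, held the TEAD word shown above and had a total of 2791 and a maximum of 8 at W1 and 3956 and 14 at W2. It lay 38782 bp from SOX9. The other at chr3:51159385-51160407, 64465 bp from Noct, held the SOX word shown above, had totals of 2709 and 2086 and lay 1846 bp from a SOX9 peak. The 10 strongest members thus included sites beside SOX9 and sites far from it.

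Basal epidermis was the only one of 8 marker lists in which each gene had an MLL3/4 peak. All 7 basal markers had MLL3/4 peaks in the gene or within 10 kb at D0, W1 and W2. Of 7 markers of differentiated epidermis 5, 5 and 3 had one at these times, and of 8 hair follicle stem cell markers 3, 4 and 5, with Lgr5 and Lhx2 without one at W1. Of 8 fibroblast markers 1 had a W1 peak, Dpp4, and Pdgfra, Col1a1 and Lum had none. Of 9 immune markers 2 had one, Cd3e and Itgam, with Ptprc, Cd74 and Csf1r among those without. Of 7 endothelial markers 2 had one, Pecam1 and Erg, with Cdh5 and Kdr among those without. Of 8 melanocyte markers 2 had a W1 peak, Dct and Mitf, and Tyr, Pmel and Sox10 had none. Of 7 adipocyte and muscle markers 1 had a W1 peak, Plin1. At D0 the counts were 4 for melanocyte, 2 for fibroblast, 3 for endothelial, 2 for immune and 0 for adipocyte and muscle markers. The part of such cells in the members was not tested, and 1 member was nearest to a melanocyte marker, Tyrp1. Peak lists do not show what share of cells carried a site, and more cells with a site cannot be told apart from more signal per cell.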

How the data were processed

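Of 41 CNR samples, 32 profiled MLL3/4, SOX9 or the MYC tag and stand, 2 per pooled list, behind the 16 lists used here. Per the study's methods, reads were trimmed with Skewer, aligned to mm10 with Bowtie2 2.2.9, deduplicated with Picard and filtered with SAMtools 1.3.1, fragments of at most 120 bp were kept, replicates were combined, tracks were made with deepTools 3.1.2, and SEACR called peaks in stringent mode at 0.01. The authors deposited for each peak a total score, the sum of the track over its bases. The deposited maximum of MLL3/4 lists is whole-number coverage signal that was not scaled, although the methods describe scaled tracks, so the depth of these lists is unknown. The deposited maximum of SOX9 and MYC-tag lists is in RPKM, and the authors kept peaks above 1800. The lists of 2 single replicates and the 9 samples of JUN, ARID1a and BRG1 were not analysed here.

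The members and the gene lists were chosen with earlier results of these data known. Peaks were intersected in Python 3.11.15 with pandas 2.3.3, numpy 2.4.6 and pysam 0.24.0 (minimum overlap 1 bp), and the code was tested on simulated peaks. Figures used matplotlib 3.10.9. Genes were those of GENCODE on GRCm38, and the nearest gene is the protein-coding gene with the closest transcript start to the centre of the maximum. Exon, intron and intergenic positions refer to that centre. Windows of 50 bp to each side of the centre were searched for 20 words on both strands, and windows 1 kb to each side served as control. Overlaps with cultured lists were compared with members moved by 10 kb to each side, and SOX9 gaps with members moved by 200 kb. Shares carry 95% Wilson intervals and differences between sets of peaks 95% Newcombe intervals, which cover counting error over peaks only. With 1 pooled list per group no test between groups was possible. In each of the 4 cultured MLL3/4 lists 3 mitochondrial peaks were left out. Named regions were the 10 members of highest total, the 15 genes nearest to most members, and up to 4 genes per list with at least 2 members. Sequences were the 5 windows of highest total and 2 for each word over 1.5 times its control, of which those for AP1, TEAD, C/EBP, POU and ETS are printed. The SOX windows and Ccnd2, Gli2, Fzd8 and Ivl were chosen after their values were seen.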

Additional observations from a re-analysis of the deposited data

How the results depend on the processing

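The share of W1 peaks that were members was 3.50% and moved most with the cut on peak strength. It was 1.72% when each MLL3/4 list was cut to its upper 50% by total signal and 1.03% (163 members) with a maximum of at least 7 at W1 and W2. It was 4.33% with lists of equal size, 2.72% and 2.76% when D0 MLL3/4 or SOX9 peaks had to be over 1 kb away, 4.30% with the SOX9 lists of W1 and W2 only, and 3.79% with W2 peaks in place of W1 peaks. Members at promoters made up 10.7% of the upper 50%, 12.3% at a maximum of at least 7 and 24.4% with promoters of 2.5 kb, beside 17.2%. The difference in promoter share from SOX9-bound gains had an interval including 0 in both cuts on strength, −0.387 (−3.75 to 4.00) and 3.78 points (−0.641 to 9.83). The SOX word was in 7.38% of the upper 50%, 17.4% for the shorter word CWTTGT (13.8% in control windows), 1.90% for the longer CCWTTGTT (1.31%) and 16.6% within 100 bp of the centre (11.9%). The deficit of SOX words against SOX9-bound gains kept its direction, with an interval below 0, in each alternative for which it was computed, which leaves out those on word length, window size and the Cwc22 region. The AP1 word was in 3.69% of the upper 50%, 9.43% with the SOX9 lists of W1 and W2 only, 5.50% with W2 peaks and 11.6% within 100 bp (3.63%). Cultured MLL3/4 peaks without DOX lay on 30.6% of the upper 50%, 22.5% with the SOX9 lists of W1 and W2 only and 25.2% at a maximum of at least 7. With WT-SOX9 and DOX these shares were 14.4%, 8.62% and 11.7%. Differences from SOX9-bound gains also came to include 0 for cultured peaks without DOX in the upper 50%, −2.22 points (−7.69 to 3.75), with the SOX9 lists of W1 and W2 only, −1.33 (−3.92 to 1.35), and at a maximum of at least 7, −2.74 (−9.15 to 4.74), and for the AP1 word with the SOX9 lists of W1 and W2 only, −1.88 (−3.69 to 0.0764). Against kept sites the AP1 word came to differ with W2 peaks, −2.11 (−3.66 to −0.367). Differences from kept sites did so for the SOX word in the upper 50%, 2.87 (−0.138 to 6.80), for promoters with lists of equal size, −1.54 (−4.12 to 1.14), without SOX9 within 1 kb, −2.49 (−5.37 to 0.575), and at a maximum of at least 7, −5.81 (−10.6 to 0.495), and for WT-SOX9 and DOX in both cuts on strength, −4.57 (−9.16 to 0.722) and −5.34 (−10.0 to 0.856). The share with SOX9 within 10 kb was 55.0% and 50.5% without D0 MLL3/4 or SOX9 peaks within 1 kb, 68.3% with the SOX9 lists of W1 and W2 only, and 87.9% within 50 kb. The causes of these shifts were not tested. The other 48 values moved by less than their counting error. The alternatives without the Cwc22 region and with a maximum of at least 7 were added after seeing the data. No paired analysis was possible because each group has 1 pooled list.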
